A study of Mus musculus with 22 samples.

Results

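The sortilin receptors are the 5 VPS10P-domain sorting receptors, encoded in the mouse by Sorcs3, Sorcs1, Sorcs2, Sort1 and Sorl1. They are 5 of 21883 protein-coding genes, chosen by family membership and with their lamin A/C coverage in KO and WT lists in view, and each was taken as its annotated body plus 1 kb on each side. ChIP-seq, which locates a protein along chromatin by sequencing the DNA bound to it, was carried out in mouse dermal fibroblasts, cultured skin cells that produce connective tissue matrix. The cells lacked Lap2alpha (KO) or were wildtype (WT). Lamin A/C was precipitated with antibody 3A6 or E1, the remodeller ATPases BRG1 and CHD4 with an antibody each, and Lap2alpha with antibody 1H11 in WT cells alone. All cells had been fixed with both DSG and formaldehyde, and their chromatin was sonicated for 16 or 20 cycles. The labels give no age, strain, clone or deleted exon, and the loss of Lap2alpha could not be checked from the region lists, so the genotypes are as labelled.

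Of 22 samples, the 18 with a region list were used, 1 library for each genotype, antibody and sonication length. They form 8 matched pairs of a KO and a WT list: BRG1 and CHD4 have 2 pairs each, and lamin A/C has 4. There were no replicates, so no test was run. Means are given ± SD over libraries or pairs, which is the spread over antibodies and sonication lengths and not over cultures. The lists held 7283 to 233769 regions, and read depth is unknown. The shortest list is that of CHD4 in KO at 20 cycles, and values from it are given apart where they decide a result. Among listed marker genes, a BRG1 region lay at a gene end in all 4 BRG1 lists for 9 of 10 fibroblast genes (Lum was the exception). The same held for 0 of 4 keratinocyte, 0 of 4 leukocyte, 1 of 4 endothelial (Tek), 2 of 4 melanocyte (Mitf and Pmel) and 1 of 4 neuronal markers (Snap25). It held for 39.6% of all protein-coding genes of at least 5 kb and 44.5% of those of at least 50 kb.

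VPS10P-domain receptors carry a luminal domain, first described in the yeast sorting receptor Vps10p, that binds ligands and steers them between the Golgi, the cell surface and endosomes. Sortilin (Sort1) carries neurotensin, pro-neurotrophins and progranulin, and SorLA (Sorl1) sorts the amyloid precursor protein. SorCS1, SorCS2 and SorCS3 are known mainly from neurons, where they guide neurotrophin receptors and synaptic proteins. Lamin A/C forms part of the nuclear lamina and also a nucleoplasmic pool. Lap2alpha is a LAP2 isoform of the nuclear interior that binds A-type lamins. Stretches of chromatin at the lamina are typically gene-poor and little transcribed. BRG1 drives the SWI/SNF remodellers and CHD4 the NuRD complex, and both occupy promoters and enhancers.

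The upstream sequences of Sorcs3 and Sorl1 are shown because Sorcs3 had the highest lamin A/C coverage of the family in WT and Sorl1 had none in WT, while neither held a BRG1 or CHD4 region in this window. Each is the 250 bases before the annotated gene start (RefSeq, GRCm38.p6), 5′ to 3′ on the gene's strand, with CG dinucleotides in capitals.
Sorcs3, chr19:48205775-48206024, plus strand: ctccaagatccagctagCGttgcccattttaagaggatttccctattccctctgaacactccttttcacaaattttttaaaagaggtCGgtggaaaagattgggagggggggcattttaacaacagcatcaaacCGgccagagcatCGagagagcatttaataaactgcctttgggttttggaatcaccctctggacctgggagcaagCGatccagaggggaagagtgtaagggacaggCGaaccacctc
Sorl1, chr9:42124298-42124547, minus strand: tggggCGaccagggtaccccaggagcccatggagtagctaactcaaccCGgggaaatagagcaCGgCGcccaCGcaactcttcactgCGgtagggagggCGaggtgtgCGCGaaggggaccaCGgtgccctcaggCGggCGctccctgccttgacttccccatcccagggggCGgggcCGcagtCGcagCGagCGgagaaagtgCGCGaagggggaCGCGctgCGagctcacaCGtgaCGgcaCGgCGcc
The Sorcs3 window held 6 CG dinucleotides and 48.4% G or C. The Sorl1 window held 26 CG and 69.6% G or C, against a median of 10 CG over 21262 protein-coding windows. The letters CACGTG, an E-box core that reads the same on both strands, occurred once in the Sorl1 window and in 6.63% of all windows. The AP-1 motif TGANTCA, searched on both strands, was in none of the members' windows and in 6.13% of all. The Sorcs1 window, chr19:50678647-50678896 on the minus strand, lies inside the annotated span of the gene. It held 41 CG, more than 98.6% of windows. A second Sorl1 window, chr9:42077214-42077463, lies within the gene and held 9 CG. These 4 windows met 0 of 4 BRG1 lists and 0 of 4 CHD4 lists. The Sorcs3 window met 1 of 8 lamin A/C lists (WT 3A6 at 20 cycles) and the other windows met none. Over all protein-coding windows, 48.7% met no BRG1 list and 17.1% met all 4. Sort1 and Sorcs2 had no matching sequence entry.

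The family split by chromosome in its lamin A/C coverage. Sorcs3 and Sorcs1, which both lie on chromosome 19, were covered in all 8 lamin A/C libraries and less in KO than in WT in 4 of 4 pairs. A region in all 8 lists was found in 5.01% of the protein-coding genes of at least 5 kb and 12.9% of those of at least 50 kb, and one in all WT lists in 5.64% and 13.2%. Sorcs2, Sort1 and Sorl1, on chromosomes 5, 3 and 9, lacked lamin A/C regions in every WT list and had a few in some KO lists. Lower coverage in KO in all 4 pairs was found in 0.605% of the 16849 protein-coding genes of at least 5 kb and in 0.971% of the 4944 genes of at least 50 kb. The share at 5 kb depended on the measure: it was 18.8% (3173 genes) when each gene's own chromosome was subtracted, 1.163% with equal numbers of the widest regions, and 0.635% to 1.32% when 1 pair was left out, the highest without the E1 pair at 16 cycles. Sorcs3 and Sorcs1 were lower in all pairs under each of these. Higher coverage in all 4 pairs was found in 9.94% and 23.9% of these genes, and in none of the 5 members. Since these coverages were in view when the genes were chosen, they are a description.

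Sorcs3 (chr19:48206025-48805505, plus strand, 599.481 kb) was covered in KO to 1.37% (3A6, 16 cycles), 3.71% (3A6, 20 cycles), 2.35% (E1, 16 cycles) and 9.66% (E1, 20 cycles). In WT the same antibodies and cycle numbers gave 8.96%, 24.4%, 6.156% and 22.7%. KO was the lower library in every matched pair, but the KO value for E1 at 20 cycles lay above both WT values at 16 cycles, so the groups overlapped when cycles were ignored. The mean was 4.27 ± 3.72% in KO and 15.5 ± 9.32% in WT (SD, n = 4 libraries each), and the mean paired difference was −11.3 ± 7.31 percentage points. On the log2 scale KO over WT was −2.71 with 3A6 at 16 cycles, −2.71 with 3A6 at 20 cycles, −1.39 with E1 at 16 cycles and −1.23 with E1 at 20 cycles. With both sonication lengths, the ratio was thus further from 0 for 3A6 than for E1.

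Sorcs1 (chr19:50143295-50679129, minus strand, 535.835 kb) gave 1.18%, 3.46%, 1.37% and 5.95% in KO, in the same order of libraries. In WT it gave 7.80%, 16.3%, 5.58% and 15.1%. Again each KO library was below its matched WT library, and only KO E1 at 20 cycles reached above a WT value, that of E1 at 16 cycles. The mean was 2.99 ± 2.23% in KO and 11.19 ± 5.30% in WT (SD, n = 4 libraries each), a difference of −8.20 ± 3.68 points. Of the 16849 genes, Sorcs3 had the 3rd most negative mean difference and Sorcs1 the 18th. A mean difference of −10 points or lower was found in 8 genes (0.0475%), of which Sorcs3 is one. In mean coverage Sorcs3 ranked 943rd in KO and 27th in WT, and Sorcs1 ranked 1535th in KO and 93rd in WT.

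**Figure D1:**
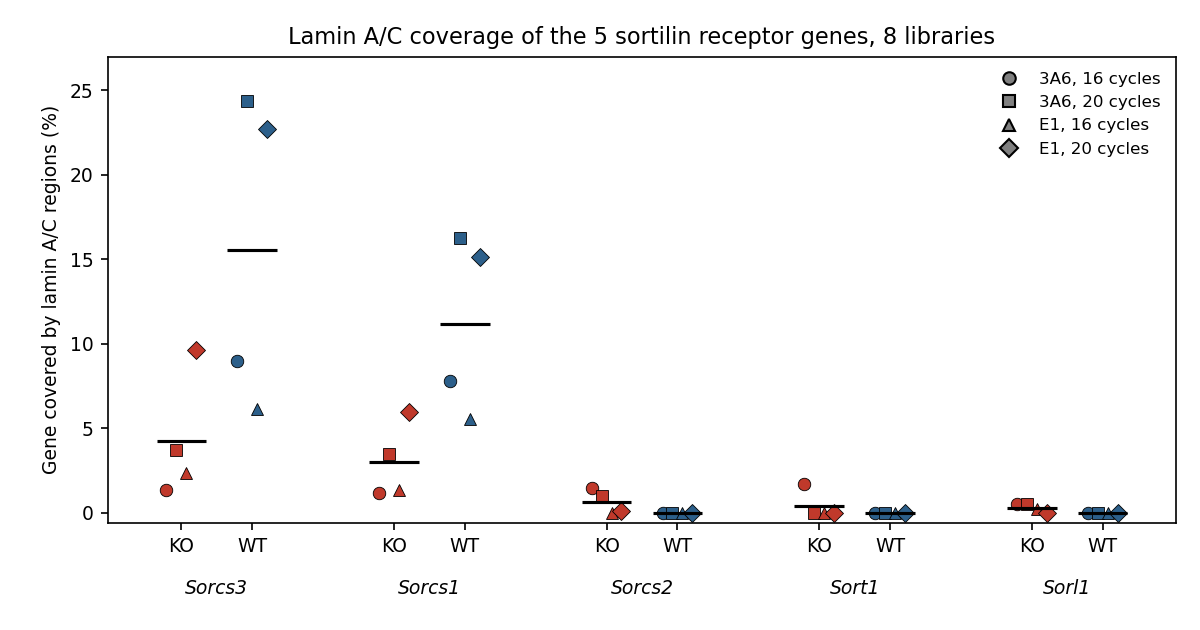
Percent of each gene (body plus 1 kb on each side) covered by lamin A/C regions in 4 KO libraries (red) and 4 WT libraries (blue), with marker shape giving antibody and sonication cycles and bars the means. Sorcs3 and Sorcs1 were lower in KO in all 4 matched pairs, while the 4 WT libraries were at 0 in Sorcs2, Sort1 and Sorl1.

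The lamin A/C lists held many short regions in these genes and not a few broad ones. Over whole lamin A/C lists the median width was 224 to 332 bp. Signal height and calling settings are unknown, so the lists do not tell how broad the underlying signal was. Sorcs3 held 37, 84, 53 and 158 regions in KO, against 170, 265, 121 and 284 in WT. Sorcs1 held 28, 70, 31 and 103 in KO, against 135, 198, 98 and 194 in WT. The median width in Sorcs3 was 212, 258, 256 and 369 bp in KO, against 307, 508, 300 and 501 bp in WT, in the same order. In Sorcs1 it was 198, 262, 236 and 310 bp in KO, against 298, 417, 288 and 416 bp in WT. The ranges of KO and WT overlapped, but within each matched pair regions were both fewer and narrower at the median in KO. Relative to the coverage of all chromosome spans in the same list, Sorcs3 stood at 0.799 to 3.05 times in KO and 9.41 to 13.5 times in WT. Sorcs1 stood at 0.686 to 1.88 times in KO and 6.29 to 12.2 times in WT. The enrichment of both genes over the genome in WT was therefore smaller in KO, down to below the genome's own coverage in the lowest KO library of each gene.

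KO regions often lay where WT regions lay. In Sorcs3, 16 of 37 KO regions (43.2%) met a WT region by at least 1 bp with 3A6 at 16 cycles and 61 of 84 (72.6%) with 3A6 at 20 cycles. With E1 these were 30 of 53 (56.6%) at 16 cycles and 136 of 158 (86.1%) at 20 cycles. WT covered 6.156% to 24.4% of the gene in these lists, a share of bases that is not comparable with a share of regions. Of the KO bases in Sorcs3, 32.6%, 67.1%, 49.3% and 79.0% lay in WT regions, in the same order. Each of these exceeded the part of the gene that the matched WT regions occupied. In the other direction, 9.41%, 23.8%, 24.8% and 47.5% of the WT regions in Sorcs3 met a KO region. For Sorcs1, 42.9%, 55.7%, 51.6% and 74.8% of KO regions met WT regions, and 8.89%, 18.7%, 16.3% and 39.7% of WT regions met KO regions. A smaller share of E1 regions met a 3A6 region in KO than in WT. E1 regions in Sorcs3 that met a 3A6 region numbered 1 of 53 in KO at 16 cycles and 26 of 158 (16.5%) in KO at 20 cycles, against 36 of 121 (29.8%) and 137 of 284 (48.2%) in WT. In Sorcs1 they numbered 1 of 31 and 6 of 103 in KO, against 20 of 98 and 81 of 194 in WT. The 3A6 lists that were met covered less of the gene in KO than in WT. Of the E1 bases in Sorcs3 in KO, 1.33% at 16 cycles and 7.21% at 20 cycles lay in 3A6 regions. Those 3A6 regions covered 1.37% and 3.71% of the gene. In Sorcs1 the KO values were 2.18% and 2.42%, against 1.18% and 3.46%. The E1 share in KO thus did not exceed the 3A6 coverage in Sorcs3 at 16 cycles and Sorcs1 at 20 cycles. In WT, 15.3% and 28.7% of the E1 bases in Sorcs3 lay in 3A6 regions, which covered 8.96% and 24.4% of the gene. In Sorcs1 the WT values were 11.8% and 21.0%, against 7.80% and 16.3%. The smaller shares in KO were therefore found beside lower 3A6 coverage, and the part of that coverage was not tested.

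The lower coverage ran along the whole length of both genes. With each gene cut into 10 equal parts from 5′ to 3′, coverage was lower in KO in 10 of 10 parts of Sorcs3 and 10 of 10 parts of Sorcs1 in every pair but E1 at 16 cycles, which gave 9 of 10 in each gene. In Sorcs3, mean KO coverage was highest in part 3, at 6.87%, and lowest in the last, at 1.61%. WT coverage was 16.3% to 19.7% in the first 7 parts and 6.68% in the last. In Sorcs1, WT coverage dipped to 1.84% and 2.75% in parts 2 and 3, against 1.08% and 1.13% in KO there. Farther along it was 16.6% and 17.8% in parts 6 and 7 in WT, against 2.61% and 4.43% in KO. KO peaked in part 9 of Sorcs1, at 7.24%, and fell to 2.52% in part 10, against 16.2% and 16.5% in WT. The shape along the gene was thus more alike between genotypes in Sorcs3 than in Sorcs1. Pearson r of KO against WT was 0.87 over the 10 parts of Sorcs3 and 0.67 over those of Sorcs1. Neighbouring parts are not independent, and these r values are descriptions.

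BRG1 coverage was highest in the parts of the chromosome 19 genes where WT lamin A/C coverage was lowest. In the last part of Sorcs3, BRG1 covered 5.09% in KO and 5.10% in WT, and in its eighth part 3.08% in KO and 3.36% in WT. In parts 2 and 3 of Sorcs1, BRG1 covered 2.54% and 2.40% in KO, against 2.44% and 3.45% in WT. Over the 10 parts, r between lamin A/C and BRG1 was −0.59 in KO and −0.91 in WT for Sorcs3, and −0.58 in KO and −0.63 in WT for Sorcs1.

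**Figure D2:**
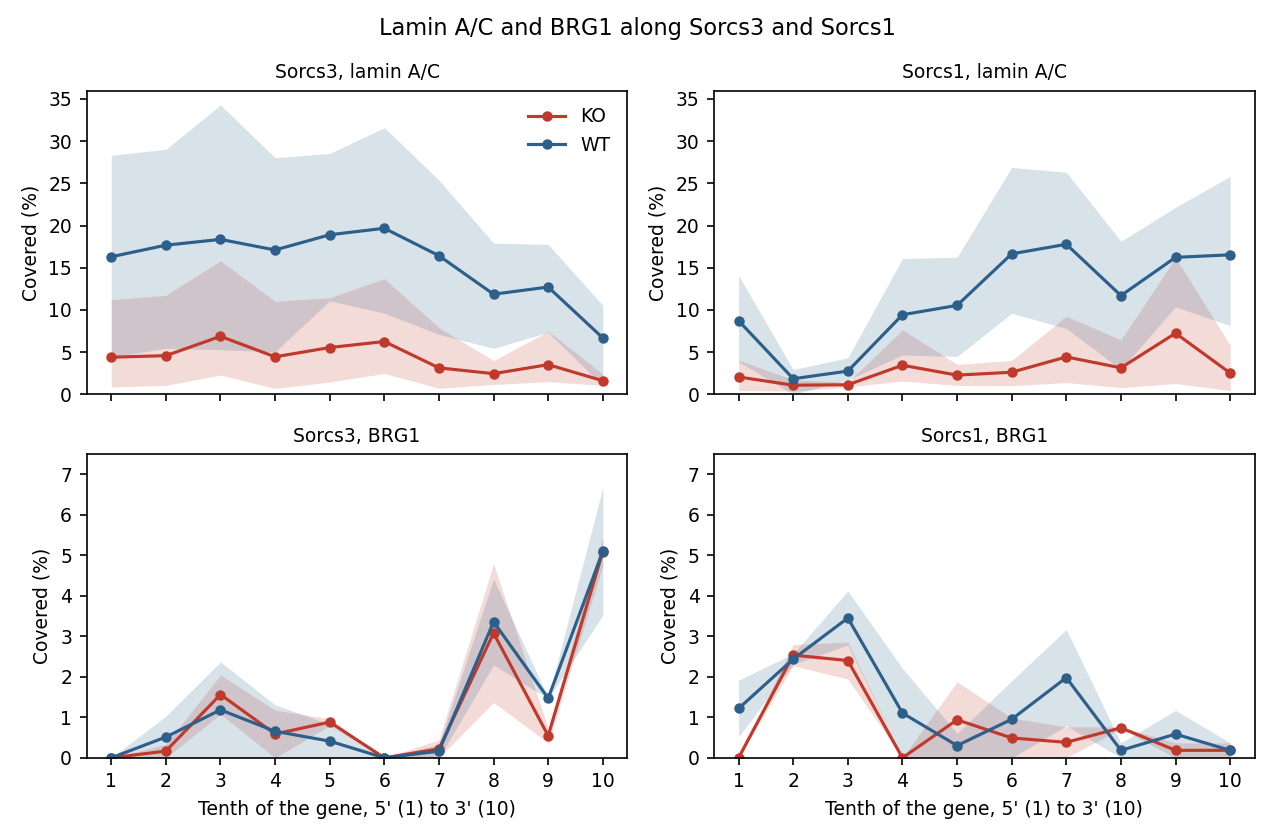
Mean percent covered by lamin A/C (top) and BRG1 (bottom) in 10 equal parts of Sorcs3 (left) and Sorcs1 (right), from 5′ to 3′, with KO in red and WT in blue and shading from the lowest to the highest library. Lamin A/C was lower in KO along both genes, and BRG1 was highest in the last part of Sorcs3 and in parts 2 and 3 of Sorcs1, where WT lamin A/C was low.

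Sorcs3 and Sorcs1 lie next to each other in a gene-poor part of chromosome 19, and the lamin A/C pattern did not stop at either gene. The 1337.79 kb between them hold no other protein-coding gene. There, coverage was 4.32 ± 3.45% in KO and 14.9 ± 6.40% in WT (SD, n = 4 libraries each), lower in KO in 4 of 4 pairs. The 1585.17 kb from Sorcs1 to Ins1, one of the 2 mouse insulin genes, gave 3.05 ± 1.83% in KO and 13.7 ± 6.11% in WT, again lower in 4 of 4 pairs. From Ins1 to 500 kb beyond it the values were 2.70 ± 1.19% in KO and 11.1 ± 4.47% in WT. Ins1 itself had no lamin A/C region in any KO list and a coverage of 32.2 ± 11.7% in WT, over a short gene.

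On the other side the pattern faded shortly before Sorcs3. The 100 kb before its start were covered to 5.47 ± 5.22% in KO and 13.3 ± 11.4% in WT, lower in KO in 4 of 4 pairs. Over the 500 kb before the start, the means were 2.36 ± 1.55% in KO and 4.21 ± 3.71% in WT, and KO was the lower library in only 2 of 4 pairs. Cfap58, a cilia and flagella associated gene that is the nearest gene on that side at 170.646 kb, gave 2.19 ± 0.922% in KO and 1.81 ± 1.87% in WT. In the 100 kb before Sorcs3, the E1 list at 20 cycles held 34 regions in KO and 52 in WT. In the first 100 kb inside the gene it held 31 in KO and 49 in WT. In the E1 lists at 20 cycles the start of Sorcs3 was therefore not the edge of the covered stretch. At 16 cycles WT held fewer regions in the 100 kb before the start than in the first 100 kb inside. These were 6 and 14 with E1, and 16 and 22 with 3A6. In KO at 16 cycles they were 6 and 4 with E1, and 11 and 5 with 3A6.

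**Figure D3:**
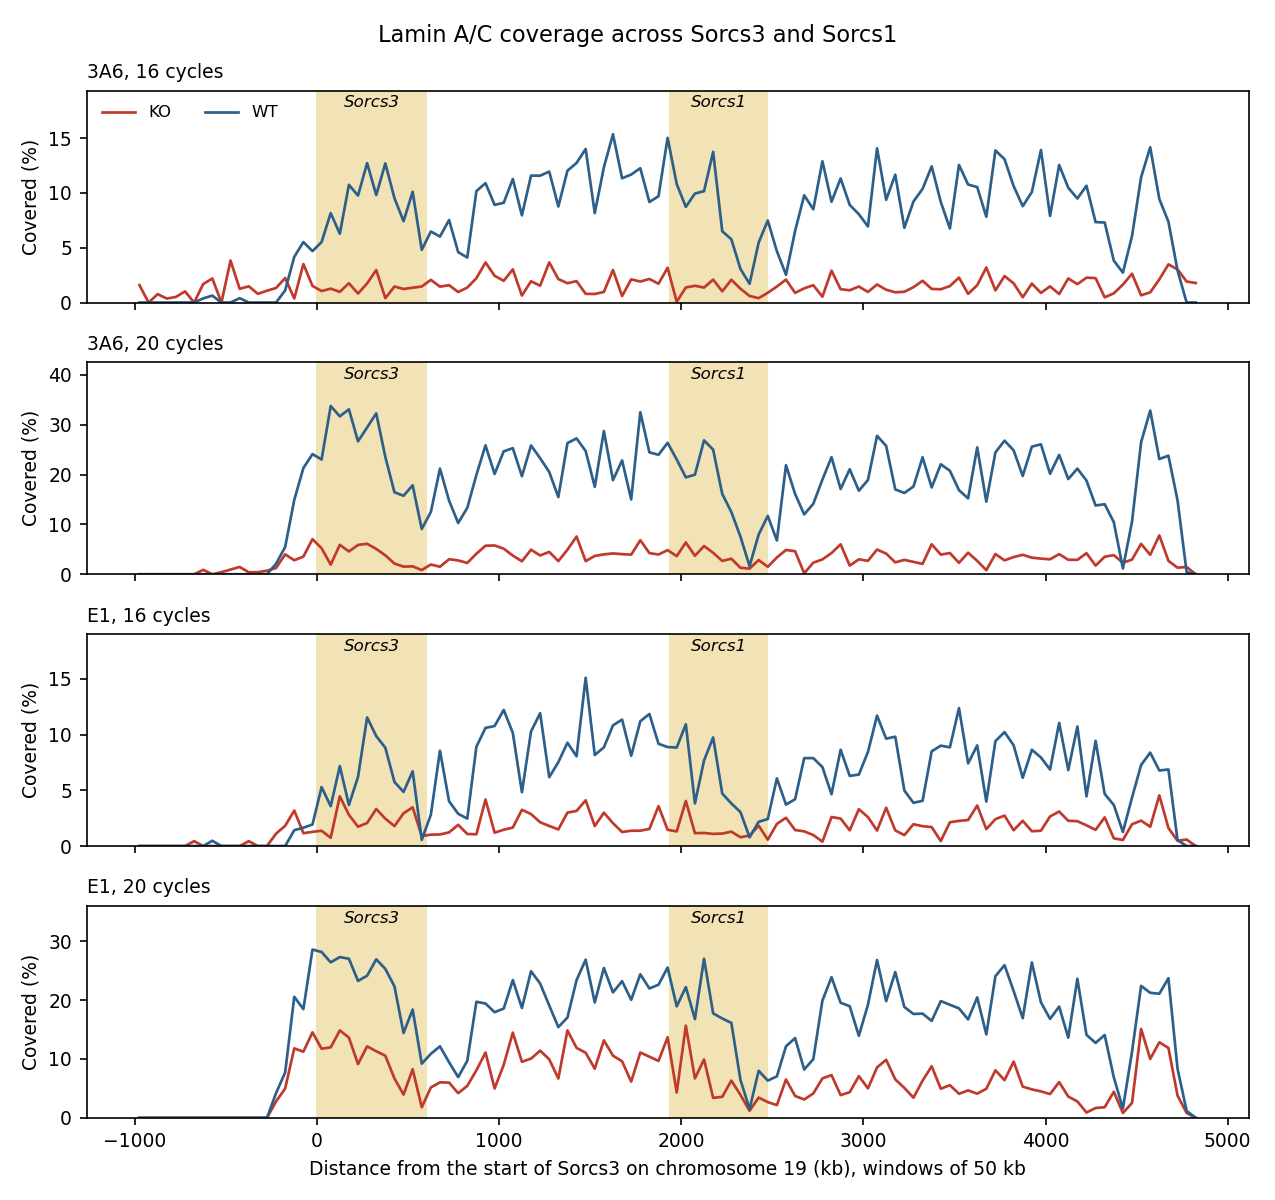
Percent covered by lamin A/C regions in windows of 50 kb across the chromosome 19 stretch that holds Sorcs3 and Sorcs1 (shaded), by distance from the start of Sorcs3, for KO (red) and WT (blue) in each of the 4 matched pairs. WT coverage stood above KO in most windows of both genes and of the space between and after them, and both genotypes were near 0 at the dip near the 5′ end of Sorcs1.

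The coverage of chromosome 19 as a whole was also lower in KO. Among chromosomes 1 to 19 and X it was the only one, of 20, that lamin A/C covered less in KO than in WT in all 4 pairs. It was covered to 1.86%, 2.31%, 0.958% and 3.00% in KO, against 2.41%, 5.35%, 1.55% and 4.58% in WT. Of its 527 genes of at least 5 kb, 22 (4.17%) were lower in KO in all pairs, Sorcs3 and Sorcs1 among them, against 80 of 16250 (0.492%) on the other chromosomes. Another 26 of the 527 (4.93%) were higher in KO in all pairs, against 9.94% of all genes of at least 5 kb. Genes of the chromosome thus went both ways, but the share of higher ones was smaller than over all genes. The KO over WT ratio of the chromosome was 0.433 to 0.772, while that of Sorcs3 was 0.152 to 0.426 and that of Sorcs1 0.151 to 0.394, each below the chromosome's ratio in all 4 pairs. The genome as a whole went the other way in most pairs, with KO over WT ratios of 1.87, 0.907, 2.44 and 1.66.

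The share of chromosome 19 was also smaller in KO for the remodellers. Relative to all spans of the same list, chromosome 19 stood at 1.25 times (16 cycles) and 1.21 times (20 cycles) for BRG1 in KO, against 1.41 and 1.65 times in WT. For CHD4 it stood at 1.29 and 1.25 times in KO, against 1.61 and 2.04 times in WT. For lamin A/C it stood at 0.859 to 1.09 times in KO and 2.06 to 3.39 times in WT. All 8 matched pairs, of all antibodies, were therefore lower in KO in this measure, and Lap2alpha in WT stood at 2.33 and 2.18 times. Input libraries were not analysed here. The part that a difference of chromosome 19 between the 2 cell populations has in the values of Sorcs3 and Sorcs1 was not tested.

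**Figure D4:**
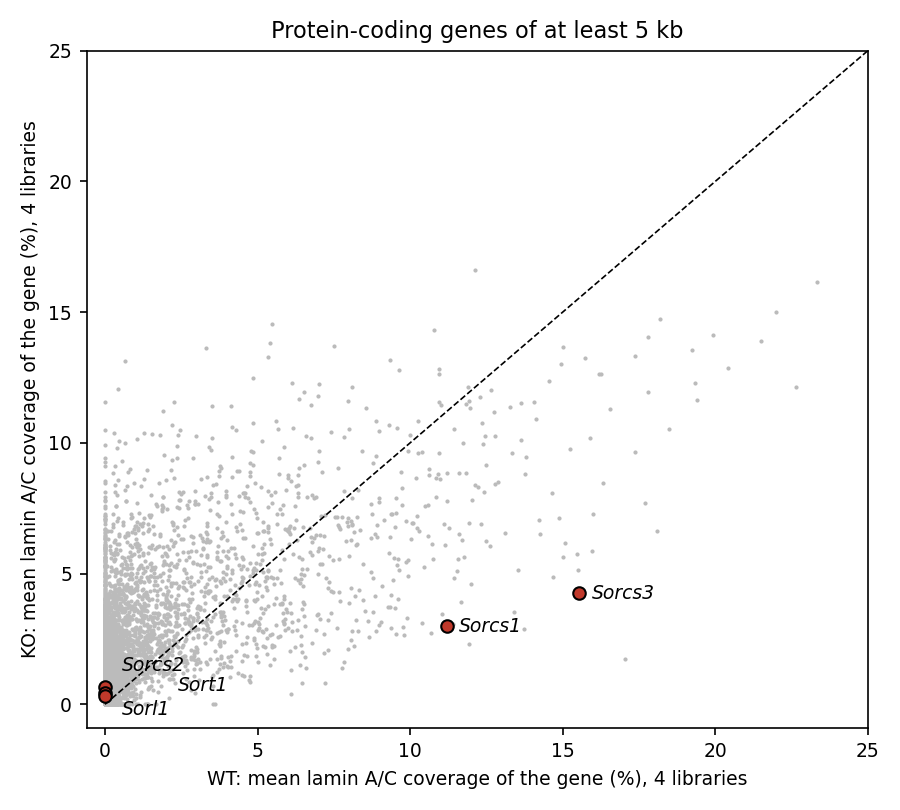
Mean lamin A/C coverage over 4 libraries in KO (vertical axis) and WT (horizontal axis) for 16849 protein-coding genes of at least 5 kb (grey) and the 5 sortilin receptor genes (red), in percent, with a dashed line of equal coverage. Sorcs3 and Sorcs1 lie far below the line, with 4.27% and 2.99% in KO against 15.5% and 11.19% in WT, while Sorcs2, Sort1 and Sorl1 lie near 0 in both genotypes.

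Lap2alpha, mapped in WT alone, was found in all 5 genes, with the highest coverage in the 2 on chromosome 19. Sorcs3 held 49 Lap2alpha regions at 16 cycles (2.24% covered, 3.29 times all spans) and 50 at 20 cycles (2.27%, 2.27 times). Sorcs1 held 45 regions (2.02%, 2.96 times) and 47 regions (2.72%, 2.72 times). In the other members the numbers were small: Sorl1 held 2 regions (0.187%) and 8 regions (1.15%), Sort1 3 (1.00%) and 1 (0.425%), and Sorcs2 1 (0.0517%) and 7 (0.439%). Relative to all spans these stood at 0.0759 to 1.47 times. Of the Lap2alpha regions in Sorcs3, 26 of 49 (53.1%, 95% Wilson interval 39.4 to 66.3) met a WT 3A6 region at 16 cycles and 40 of 50 (80.0%, 67.0 to 88.8) at 20 cycles. In Sorcs1 these were 22 of 45 (48.9%) and 31 of 47 (66.0%). In the whole Lap2alpha lists the shares were 15.8% and 19.5%, though lamin A/C also covers far less of the genome than of these genes. With E1 the shares were lower, at 20.4% and 34.0% in Sorcs3 and 17.8% and 25.5% in Sorcs1, against 4.01% and 6.63% in the whole lists. Of the Lap2alpha regions at 16 cycles, 10 of 49 in Sorcs3 and 9 of 45 in Sorcs1 met one at 20 cycles, with 1 library per cycle number. Such intervals cover counting error only.

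Sorcs2, Sort1 and Sorl1 were outside lamin A/C in WT, as were 77.4% of genes of at least 5 kb and 55.8% of those of at least 50 kb. Sorcs2 (chr5:36017180-36398197, 381.018 kb) held 22, 15, 0 and 2 lamin A/C regions in KO and none in any WT list. Its KO coverage was 1.47%, 0.992%, 0% and 0.109%, so both 3A6 libraries lay above both E1 libraries. Sorl1 (chr9:41964709-42124297, minus strand, 159.589 kb) held 4, 4, 1 and 0 regions in KO, a coverage of at most 0.529%, and none in WT. Sort1 (chr3:108283974-108361519, 77.546 kb) held 6 regions in KO with 3A6 at 16 cycles (1.69%) and none in the other KO lists or in WT. The mean difference was 0.643 ± 0.709 points for Sorcs2, 0.424 ± 0.847 for Sort1 and 0.304 ± 0.251 for Sorl1. The median over all genes of at least 5 kb was 0.449 points and over those of at least 50 kb 0.625 points, so these members were close to the middle of the genes measured.

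The surroundings of the members differed in the same way. Within 1 Mb on each side, lamin A/C covered 3.87% in KO and 14.6% in WT around Sorcs1, which has no other protein-coding gene within that distance. Around Sorcs3, with 11 other genes there, it covered 2.76% in KO and 8.12% in WT. Around Sorcs2, with 29 other genes, it covered 0.817% in KO and 0.0083% in WT. Sort1 had 48 other genes and Sorl1 11, with 0.414% and 0.303% in KO, against 0.00248% and 0.0203% in WT. The nearest genes on both sides of Sort1 were Psma5, a proteasome subunit, and Mybphl. Those of Sorcs2 were Afap1, which encodes an actin filament associated protein, and Tada2b, which encodes a transcriptional adaptor, with Psapl1 nested inside Sorcs2. Those of Sorl1 were Gm40514 and Sc5d, a sterol desaturase. Of these 6 flanking genes, only Afap1 had any lamin A/C region in WT, at 0.0568 ± 0.114%.

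For BRG1 the family ranked differently, with Sort1 the most covered gene in all 4 lists and Sorl1 the next. Sort1, the sortilin gene, was covered by BRG1 to 8.56% and 9.47% in KO at 16 and 20 cycles, against 5.38% and 10.4% in WT. Sorl1 was covered to 3.51% and 3.50% in KO, against 1.63% and 5.50% in WT. The KO values of both genes lay between the WT values, so the genotypes did not separate. The 1 Mb on each side of Sort1 had BRG1 coverage close to that of the gene, at 8.53% and 10.4% in KO and 5.32% and 11.8% in WT. Around Sorl1 it was above that of the gene, at 6.68% and 8.08% in KO and 4.79% and 9.18% in WT. Sorcs2 gave 1.76% and 1.62% in KO, against 0.432% and 1.75% in WT. Sorcs3 gave 1.39% and 1.03% in KO, against 0.728% and 1.83% in WT. Sorcs1 gave 0.620% and 0.946% in KO, against 0.665% and 1.81% in WT. Sorcs1 was the only member with less BRG1 in KO in both pairs, as were 7.12% of genes of at least 5 kb and 10.8% of those of at least 50 kb, and the difference at 16 cycles was small. This held in 1 of 2 pairs with regions of at least 300 bp, and the mean difference changed from −0.453 to 0.119 points when chromosome 19 coverage was subtracted. No member had more in both pairs, against 26.2% and 32.2% of these genes.

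CHD4 ranked the 5 genes as BRG1 did in KO at 16 cycles, and Sort1 came first in all but the short KO list. Sort1 was covered by CHD4 to 6.51% and 0% in KO, against 2.02% and 4.05% in WT. Sorl1 gave 1.70% and 0% in KO, against 0.104% and 1.39% in WT. Sorcs2 gave 1.11% and 0.0919% in KO, against 0% and 0.418% in WT. The 0 values in KO all come from the short list at 20 cycles, which covered 0.0912% of all chromosome spans. Sorcs3 gave 0.863% and 0% in KO, against 0.648% and 1.55% in WT. Sorcs1 gave 0.317% and 0.0640% in KO, against 0.495% and 1.24% in WT. As listed, Sorcs1 was again the only member lower in KO in both pairs, a property of 7.58% of genes of at least 5 kb and 12.7% of those of at least 50 kb. No member was higher in both, against 0.594% and 0.910% of these genes. The lower CHD4 of Sorcs1 was seen in only 1 of 2 pairs with equal numbers of the widest regions, with a mean difference of −0.0571 points in place of −0.676, and in 1 of 2 pairs relative to all spans. With chromosome 19 coverage subtracted the mean was 0.869 points. Without the 20-cycle pair, 4 of 5 members had more CHD4 in KO than in WT, and Sorcs1 had less. The KO list at 16 cycles also covered more of all chromosome spans than the WT list, at 2.04% against 0.936%. The share of all genes with more CHD4 in this pair is not given here, so the count does not set the members apart.

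Sites that carried BRG1 whatever the genotype and sonication were few in the long genes and dense in Sort1. Joined over the 4 BRG1 lists, regions gave 20 sites in Sort1, 32 in Sorl1, 36 in Sorcs2, 41 in Sorcs3 and 46 in Sorcs1. Of these, 5 in Sort1, 5 in Sorl1, 3 in Sorcs2, 4 in Sorcs3 and 2 in Sorcs1 were present in all 4 lists. Per 100 kb this was 6.29 in Sort1, 3.09 in Sorl1, 0.783 in Sorcs2, 0.665 in Sorcs3 and 0.372 in Sorcs1. A density over all genes is not given here. Each of these shared sites also held CHD4 in at least 1 list, and the same share over all genes is not given here either. A BRG1 region in all 4 lists somewhere in the gene was found in 58.7% of genes of at least 5 kb and in 81.4% of those of at least 50 kb, so its presence does not set the members apart.

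In Sort1 the shared sites lay toward the lower coordinates of the gene. They were chr3:108283457-108284100, which spans the lower end of the gene, chr3:108293983-108295210, chr3:108295820-108297317, chr3:108318537-108320297 and chr3:108327601-108329056. BRG1 coverage peaked in the second of 10 parts, at 28.2% in KO and 20.7% in WT, and in the sixth, at 25.2% in KO and 16.5% in WT. CHD4 was highest in the second part in KO, at 13.9% against 8.49% in WT, and in the sixth part in WT, at 10.1% against 7.87% in KO. The last 2 parts held no BRG1 or CHD4 in either genotype.

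In Sorl1 the shared sites gathered near the 5′ side of the gene. The sites chr9:42109429-42110540 and chr9:42107857-42109092 lay 14.3 and 15.8 kb from the 5′ start, and chr9:42098182-42099633 and chr9:42094483-42095687 lay 25.4 and 29.2 kb from it. The remaining one, chr9:41963457-41964098, lay at the 3′ end of the gene. The second of 10 parts was covered by BRG1 to 14.05% in KO and 13.5% in WT, and the first to 9.82% in KO and 10.9% in WT. Sorl1 therefore had BRG1 downstream of its start and none in the 26-CG window printed above. Sort1 and Sorl1 had a BRG1 region at a gene end in all 4 lists, as did 39.6% of genes of at least 5 kb and 44.5% of those of at least 50 kb.

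**Figure D5:**
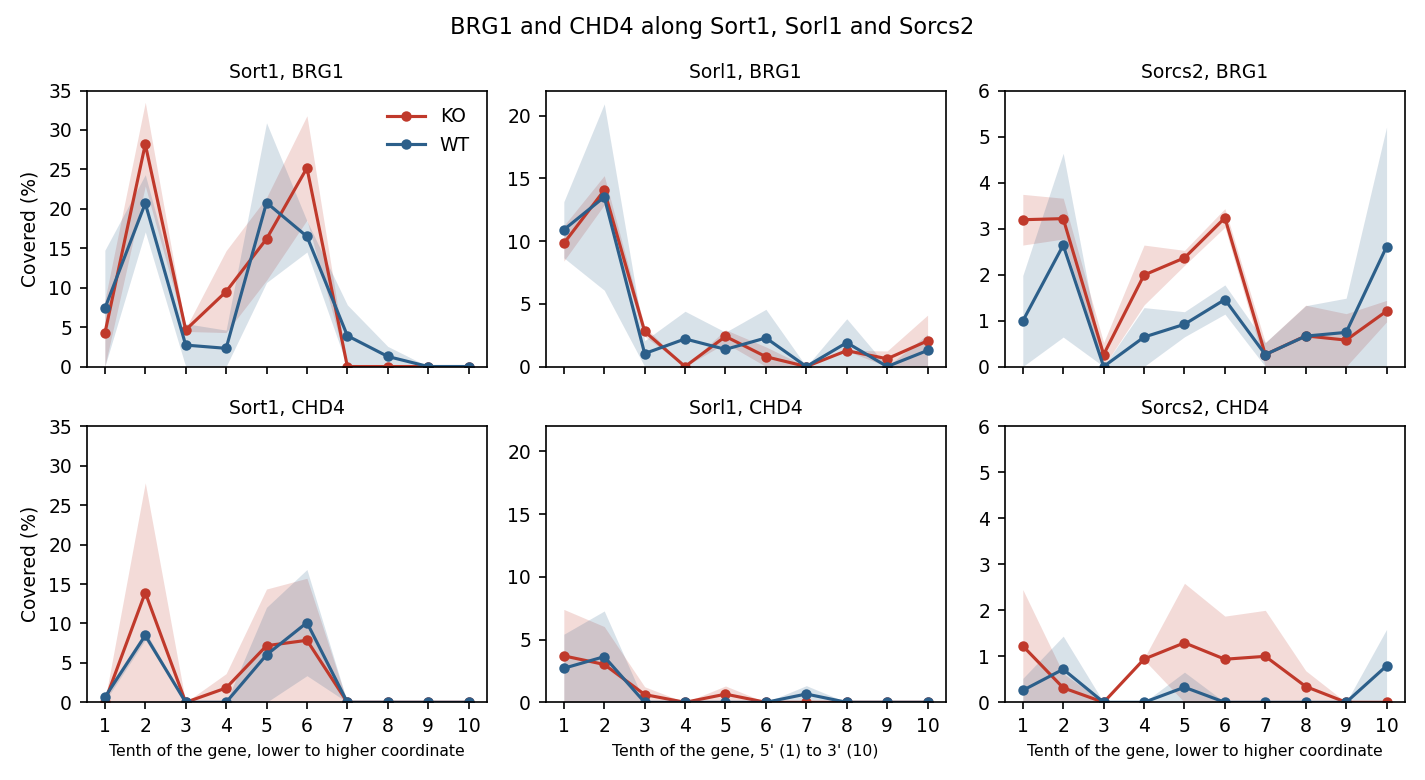
Mean percent covered by BRG1 (top) and CHD4 (bottom) in 10 equal parts of Sort1, Sorl1 and Sorcs2, with KO in red and WT in blue and shading from the lower to the higher library, on a vertical scale that differs between genes. BRG1 peaked in the second part of Sort1, at 28.2% in KO and 20.7% in WT, and in the second part of Sorl1, at 14.05% in KO and 13.5% in WT.

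In the chromosome 19 genes the shared BRG1 sites were far from the starts. In Sorcs3 they were chr19:48666329-48667984, which is 461 kb into the gene, chr19:48706133-48706736, chr19:48778828-48779865 and chr19:48780473-48781710. The first of these met lamin A/C regions in 6 of 8 lists and the last in none. In Sorcs1 they were chr19:50565821-50566862 and chr19:50603391-50604570, of which the first held CHD4 in all 4 lists and was the only shared site of the family to do so. In Sorcs2 they were chr5:36074886-36075861, chr5:36188086-36189047 and chr5:36225807-36226739, each with CHD4 in 1 list. Sites found in both lists of one genotype and in neither of the other were rare. Those of KO numbered 3 in Sorcs3, 1 in Sorcs2 and 1 in Sorl1, and those of WT numbered 2 in Sorcs1 and 1 in Sorcs3.

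Genes that act with these receptors were near the background in their lamin A/C coverage. Of 40 listed genes, 39 were at least 5 kb long and 33 of these (84.6%) lacked lamin A/C in WT, against 77.4% of all genes of that length. Vldlr, a lipoprotein receptor gene on chromosome 19, was the 1 gene (2.56%, against 0.605% of all) with lower values in KO in all 4 pairs, at 1.60 ± 0.694% in KO and 3.11 ± 2.37% in WT. Higher coverage in KO in all pairs was found for 3 (7.69%, against 9.94% of all). The neurotrophin-3 gene Ntf3 had 6.80 ± 4.02% in KO and 0.261 ± 0.523% in WT. Lrp2, the megalin gene, had 2.00 ± 1.205% in KO and 0.00183 ± 0.00367% in WT. App, the amyloid precursor gene, had 0.638 ± 0.153% in KO and 0.0220 ± 0.0441% in WT. The median difference over the 39 genes was 0.226 points, against 0.449 over all genes of that length. By role, 14 of 14 sorting adaptor and retromer genes and 5 of 5 protease genes had no lamin A/C in WT, as had 9 of 11 ligand and cargo genes and 5 of 9 receptors. A BRG1 region at a gene end in all 4 lists was found for 9 of 14 adaptor and retromer genes, 5 of 5 proteases, 2 of 11 ligands and 1 of 9 receptors. Together these are 17 of 39 genes (43.6%), against 39.6% of all genes of at least 5 kb.

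Over the 18 lists, Sorcs1 and Sorcs3 resembled each other with a Pearson r of 0.991 in percent covered. Among the other 4397 eligible genes of at least 50 kb, Cyp2c39, a cytochrome P450 gene on chromosome 19, had the highest Pearson r with each of them, 0.995 with Sorcs1 and 0.992 with Sorcs3. By Spearman's rho it ranked 1st for Sorcs1 (0.970) and 17th for Sorcs3 (0.941), so the order depends on the measure. Its lamin A/C coverage was 3.46 ± 2.43% in KO and 11.04 ± 5.57% in WT. By Pearson r the next for Sorcs1 was Nlgn1, a neuroligin gene on chromosome 3, with r = 0.992 (12th by rho) and a lamin A/C coverage of 3.12 ± 1.65% in KO and 10.4 ± 4.42% in WT. The next for Sorcs3 was Sirpb1a, a signal-regulatory protein gene on chromosome 3, with r = 0.990 (60th by rho) and 2.102 ± 2.36% in KO and 7.96 ± 4.41% in WT. After these came, for both, Trpm3, an ion channel gene on chromosome 19 (14th for Sorcs1 and 28th for Sorcs3 by rho), with 4.03 ± 2.18% in KO and 9.59 ± 4.88% in WT. Cyp2c39 and Sirpb1a belong to families of near-identical copies, so reads there may be split between genes. The 18 points share antibodies and list lengths, and r is a description here. These genes were picked by likeness over lists that include those of lamin A/C, so similar lamin A/C values follow from the choice. Of the genes named here, Nlgn1 and Sirpb1a lie off chromosome 19.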

How the data were processed

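Per the files, the authors deposited 1 interval list for each library used, holding the chromosome, start and end of each interval and no height or significance. The submitters' processing notes name GRCm38 as the build and list MACS2 2.1.4, HOMER 4.11.1, SAMtools, deepTools and bedtools. What each tool did, the threshold, the control and any pooling were not given in the sources used here. Since a longer list can follow from depth or threshold, coverage is not an amount of protein.

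Intervals of width 0 (1 to 1201 per list) and mitochondrial ones (in 2 lists) were dropped, and overlapping intervals, found in 7 lists, were merged into regions. Genes came from the RefSeq table of GRCm38.p6. Percent covered was computed per gene with 1 kb on each side (Python 3.11.15, NumPy 2.4.6, pandas 2.3.3), and KO minus WT was taken within pairs of one antibody and cycle number, with no test. Interval code was tested on simulated data, where 0 of 2000 windows were off. Overlap meant at least 1 bp. Named genes were the members, partner genes that moved one way in all lamin A/C pairs, the 3 genes most like each lamin A/C-covered member, and nearest neighbours. Members and lists were chosen with earlier results of these data known.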

Additional observations from a re-analysis of the deposited data

Results flagged for a closer look

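The KO minus WT difference of the remodellers pointed one way at 16 cycles and the other way at 20 cycles in 4 genes. There is 1 pair per cycle number, and the difference between cycle numbers was not tested. For BRG1, Sort1 was 3.18 points higher in KO at 16 cycles and stood at −0.947 points at 20 cycles. Sorl1 gave 1.88 and −2.0 points, Sorcs2 gave 1.33 and −0.138 points, and Sorcs3 gave 0.664 and −0.807 points for BRG1, each at 16 and then 20 cycles. For CHD4, Sort1 gave 4.49 and −4.05 points, Sorl1 gave 1.60 and −1.39 points, Sorcs2 gave 1.11 and −0.326 points, and Sorcs3 gave 0.214 and −1.55 points. List length moved with these signs. The BRG1 lists held 107321 regions in KO and 72225 in WT at 16 cycles, against 175641 in KO and 205999 in WT at 20 cycles. The CHD4 lists held 88788 in KO and 49441 in WT at 16 cycles, and 7283 in KO and 109769 in WT at 20 cycles. The part of list length in the differences was not tested. Sorcs1 was lower in KO at both cycle numbers for both proteins.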

How the results depend on the processing

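Sorcs3 had less lamin A/C in KO under all 15 alternatives, with mean differences of −16.8 to −5.70 points. Sorcs1 kept its direction under 14 of 15, down to −11.1 points, and changed sign to 2.53 points when the coverage of the 1 Mb on each side was subtracted. This difference was positive in 4 of 4 pairs. Lamin A/C covered the sides to 3.87% in KO and 14.6% in WT, and the gene to 2.99% and 11.19%. The sides thus fell by more points than the gene. With the sides subtracted, Sorcs2 gave −0.166 points and Sorl1 0.0215 points. Sorl1 gave 0.0492 points with regions of at least 300 bp and −0.692 points minus its own chromosome. Minus the own chromosome, Sorcs1 changed sign to 0.119 points for BRG1 and 0.869 points for CHD4, and Sorcs3 gave 0.877 points for CHD4. The log2 ratio of Sorcs1 was −2.08 as reported and −2.78 relative to all spans. The number of members with more lamin A/C in KO in all pairs was 0 to 1 when a pair was left out. The 1 was Sorcs2 without the E1 pair at 16 cycles and Sorl1 without the E1 pair at 20 cycles. Among all genes of at least 5 kb, 13.1% and 15.6% had more in these settings. The cause was not tested for these changes. Of the other 172 alternative values, 15 changed sign within the spread between pairs, 0 of them for lamin A/C and 0 for Sorcs1. They were BRG1 or CHD4 values of the other 4 genes, whose pairs differed in direction to begin with, and 8 of the 15 came from leaving out a cycle number. Sort1 CHD4, for example, was 0.220 points as reported, −4.05 points without 16 cycles and 4.49 points without 20 cycles. Sorcs1 CHD4 moved from −0.676 to −0.0571 points with equal numbers of the widest regions.

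Genes of at least 5 kb with less lamin A/C in all pairs numbered 102 as reported, 196 with equal numbers of the widest regions, 107 to 223 without one pair and 3173 (18.8%) minus the own chromosome. Those with more numbered 1674, 791, 1937 to 2630 and 1171 under the same settings. The lists give no depth, the 3A6, BRG1 and CHD4 pairs at 20 cycles combine a list with overlapping intervals and one without, and 1 library per group leaves differences between cultures unmeasured.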
